A study of Mus musculus with 20 samples.

Results

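The genes described here are 39 transporters, channels, pump subunits, kinases and transcription factors of the distal nephron and collecting duct of the mouse kidney. They were chosen by gene symbol, with earlier results of these data known. They fall into 9 genes of the thick ascending limb, 9 of the distal convoluted tubule, 11 of the principal cell and the sodium pump, and 10 of the intercalated cell. All 39 were found among the 24762 genes of the joined count table, and 38 passed the filter on low counts. Cldn14, a claudin that restrains calcium reabsorption in the thick limb, had 8 reads over the 20 libraries and was not tested. Whole-kidney RNA was compared between male C57BL/6J mice that carried the ARLmon allele (ARLmon/Y) and wild type mice of the same strain. All mice were castrated by orchidectomy, after which testosterone or vehicle was given for 4 days. The groups, with 5 libraries each, were ARLmon/Y with testosterone, ARLmon/Y with vehicle, wild type with testosterone and wild type with vehicle. As background, the ARLmon allele changes the ligand-binding domain of the androgen receptor so that this domain no longer forms dimers, and orchidectomy removes the main source of the hormone.

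As background, the distal nephron sets the final composition of urine. The thick ascending limb reabsorbs sodium, potassium and chloride through the cotransporter Slc12a1 and passes calcium and magnesium between its cells through claudins. The distal convoluted tubule reabsorbs sodium chloride through the thiazide-sensitive cotransporter Slc12a3, which the WNK kinases control. In the collecting duct, principal cells take up sodium through the epithelial channel made of Scnn1a, Scnn1b and Scnn1g, and intercalated cells secrete acid or bicarbonate with a vacuolar proton pump. Slc12a3 is known to be more abundant in kidneys of female than of male mice.

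Levels are read counts scaled to a common library total (CPM) after TMM scaling, which corrects library size for a few very abundant genes. Reads assigned to genes ranged from 10236738 to 18609328 per ARLmon testosterone library, 11569255 to 16881304 per ARLmon vehicle library, 8342000 to 15422018 per wild type testosterone library and 8618311 to 38101526 per wild type vehicle library. Differences are log2 changes ± SE from edgeR's quasi-likelihood test, and a gene is said to have risen or fallen where its p, adjusted by Benjamini-Hochberg over the 15549 genes tested, was below 0.05. Nothing in the labels ties each library to an animal of its own, and p-values therefore measure the spread between these libraries, which may be technical. The known androgen target Odc1 averaged 188 ± 26.8 and 202 ± 24.2 CPM in ARLmon kidneys with testosterone and vehicle, and 1509.7 ± 119 and 206 ± 32.4 CPM in wild type kidneys with testosterone and vehicle (SD, n = 5 each). Kap, another androgen target of the kidney, averaged 6450.4 ± 1307 and 8184 ± 4642 CPM in the ARLmon groups and 39464 ± 5353 and 14797 ± 7845 CPM in the wild type groups in the same order of treatments. Libraries GC078618 (ARLmon vehicle) and GC078604 (wild type vehicle) lay farthest along the second principal component of all genes, at 44.7 and 50.2. The adrenal steroid enzymes Cyp11b1 and Cyp21a1 had 157 and 197 reads in ARLmon vehicle library GC078620 and at most 1 read in any other library, and without that library the counts of changed genes in each comparison below were the same. Library size as the only scaling moved the median log2 difference of all genes between ARLmon and wild type kidneys under testosterone to 0.28, against 0.04 with TMM, and that between testosterone and vehicle in wild type kidneys to -0.18, against -0.03 with TMM. Over all genes it gave 5690 rises and 1213 falls in the first of these comparisons, against 2431 and 2411 with TMM, and 897 rises and 2687 falls in the second, against 1455 and 989 with TMM.

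Under testosterone, distal nephron genes were higher in ARLmon than in wild type kidneys. Of the 38 tested genes 22 rose and 2 fell, beside 15.6% of all tested genes that rose and 15.5% that fell. The median of the 38 log2 differences was 0.45 and 35 of them were above 0, whereas the median over all genes was 0.04. Scaled by library size alone, the 38 genes had a median of 0.69 and the distance to the median of all genes was 0.41, as with TMM. The rises included Slc12a3, all 3 epithelial sodium channel subunits, the intercalated cell regulator Foxi1 and the potassium channel Kcnj1. The 2 falls were Cldn10, a claudin with isoforms of the thick limb and the proximal tubule, and Kcnj16, a subunit of basolateral potassium channels. By segment, 3 of 8 tested thick limb genes rose and 1 fell, 5 of 9 distal convoluted tubule genes rose and 1 fell, 7 of 11 principal cell and pump genes rose, and 7 of 10 intercalated cell genes rose. The segment medians were 0.39, 0.41, 0.51 and 0.48 in that order.

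Without hormone, fewer of the genes differed between the genotypes. In ARLmon vehicle kidneys against wild type vehicle kidneys, 5 of 38 genes rose (Slc12a3, Gata3, Foxi1, Atp6v1b1 and Slc4a1), beside 1.99% of all tested genes. Slc12a3 and Atp6v1b1 were lost with no filter on low counts (adjusted p = 0.0528 and 0.0517), Foxi1 and Slc4a1 with the vehicle groups compared alone (adjusted p = 0.0866 and 0.14), and Slc4a1 by limma on the deposited log2 table (adjusted p = 0.0525). Cldn16 and Pvalb passed as rises with library size as the only scaling, by DESeq2, by limma-voom and by limma on the deposited log2 table. Atp6v0d2 passed as a rise with library size alone and by DESeq2. Kcnj1 and Atp6v1g3 did so with library size alone, and Klhl3 by limma on the log2 table. None of the 38 fell by edgeR, 1 (Cldn10) did by DESeq2 and none by limma-voom, beside 2.38% of all tested genes by edgeR. At an unadjusted p below 0.05, 14 of the 38 were higher and 1 lower, beside 2780 of all 15549 genes in either direction. The median was 0.27 over the 38 genes, of which 29 were above 0, and 0.00 over all genes. The segment medians ran from -0.01 in the thick limb through 0.20 for principal cell and pump genes and 0.29 in the distal convoluted tubule to 0.33 for intercalated cell genes. Of the 5 that rose, 3 were intercalated cell genes.

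In wild type kidneys, 3 of the 38 genes fell with testosterone relative to vehicle: Scnn1a, Wnk4 and Fxyd4. Fxyd4 was lost with limma-voom (adjusted p = 0.0538), and with the wild type groups compared alone both Fxyd4 (adjusted p = 0.0606) and Wnk4 (adjusted p = 0.0537) were lost. The groups compared alone gave 4 falls, with Bsnd, Kcnj1 and Trpm6 newly called beside Scnn1a. Library size as the only scaling gave 18 falls and limma on the deposited log2 table gave 16. Neither gave a rise. Over all tested genes 6.36% fell. Over all 20 libraries none of the 38 rose by edgeR or limma-voom and 2 (Cldn10 and Nedd4l) rose by DESeq2. By edgeR 9.36% of all tested genes rose. With 1 library left out, edgeR called a rise of Nedd4l (without GC078603 or GC078607), Kcnj16 (without GC078605) or Cldn10 (without GC078608 or GC078621). At an unadjusted p below 0.05 with all libraries, 15 genes were lower and 4 higher, beside 4480 of all 15549 genes in either direction. The median of the 38 log2 differences was -0.27 with 32 below 0, and the median of all genes was -0.03. Segment medians lay close together, at -0.28, -0.30, -0.29 and -0.20 for thick limb, distal convoluted tubule, principal cell and intercalated cell genes.

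In ARLmon kidneys, none of the 38 genes changed between testosterone and vehicle by edgeR, DESeq2 or limma-voom, and 0% of all tested genes did by edgeR. At an unadjusted p below 0.05, Pvalb and Atp6v1g3 were lower with testosterone, beside 813 of all 15549 genes in either direction. The median of the 38 genes was -0.04. The difference between the 2 testosterone effects, ARLmon minus wild type, was itself tested. Over all 20 libraries with TMM it passed the threshold for none of the 38 genes by edgeR, beside 4.77% of all tested genes. Nor did it pass by DESeq2 or limma-voom. It was above 0 and passed for Scnn1a and Wnk4 with library size as the only scaling and by limma on the deposited log2 table. Without GC078602 it passed for Scnn1a by edgeR. In the edgeR fit of all 20 libraries with TMM, this difference had an unadjusted p below 0.05 for 3 genes. It was above 0 for Scnn1a and Wnk4 and below 0 for Cldn10. Over all 15549 genes tested, 2588 were below that p. Scnn1a had the smallest p, with a difference of effects of 0.60 ± 0.20, adjusted p = 0.11 (95% interval 0.17 to 1.02). The comparisons share groups: the 5 wild type vehicle libraries enter both the genotype comparison under vehicle and the testosterone comparison in wild type, and the 5 wild type testosterone libraries enter both the genotype comparison under testosterone and the testosterone comparison in wild type.

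**Figure D1:**
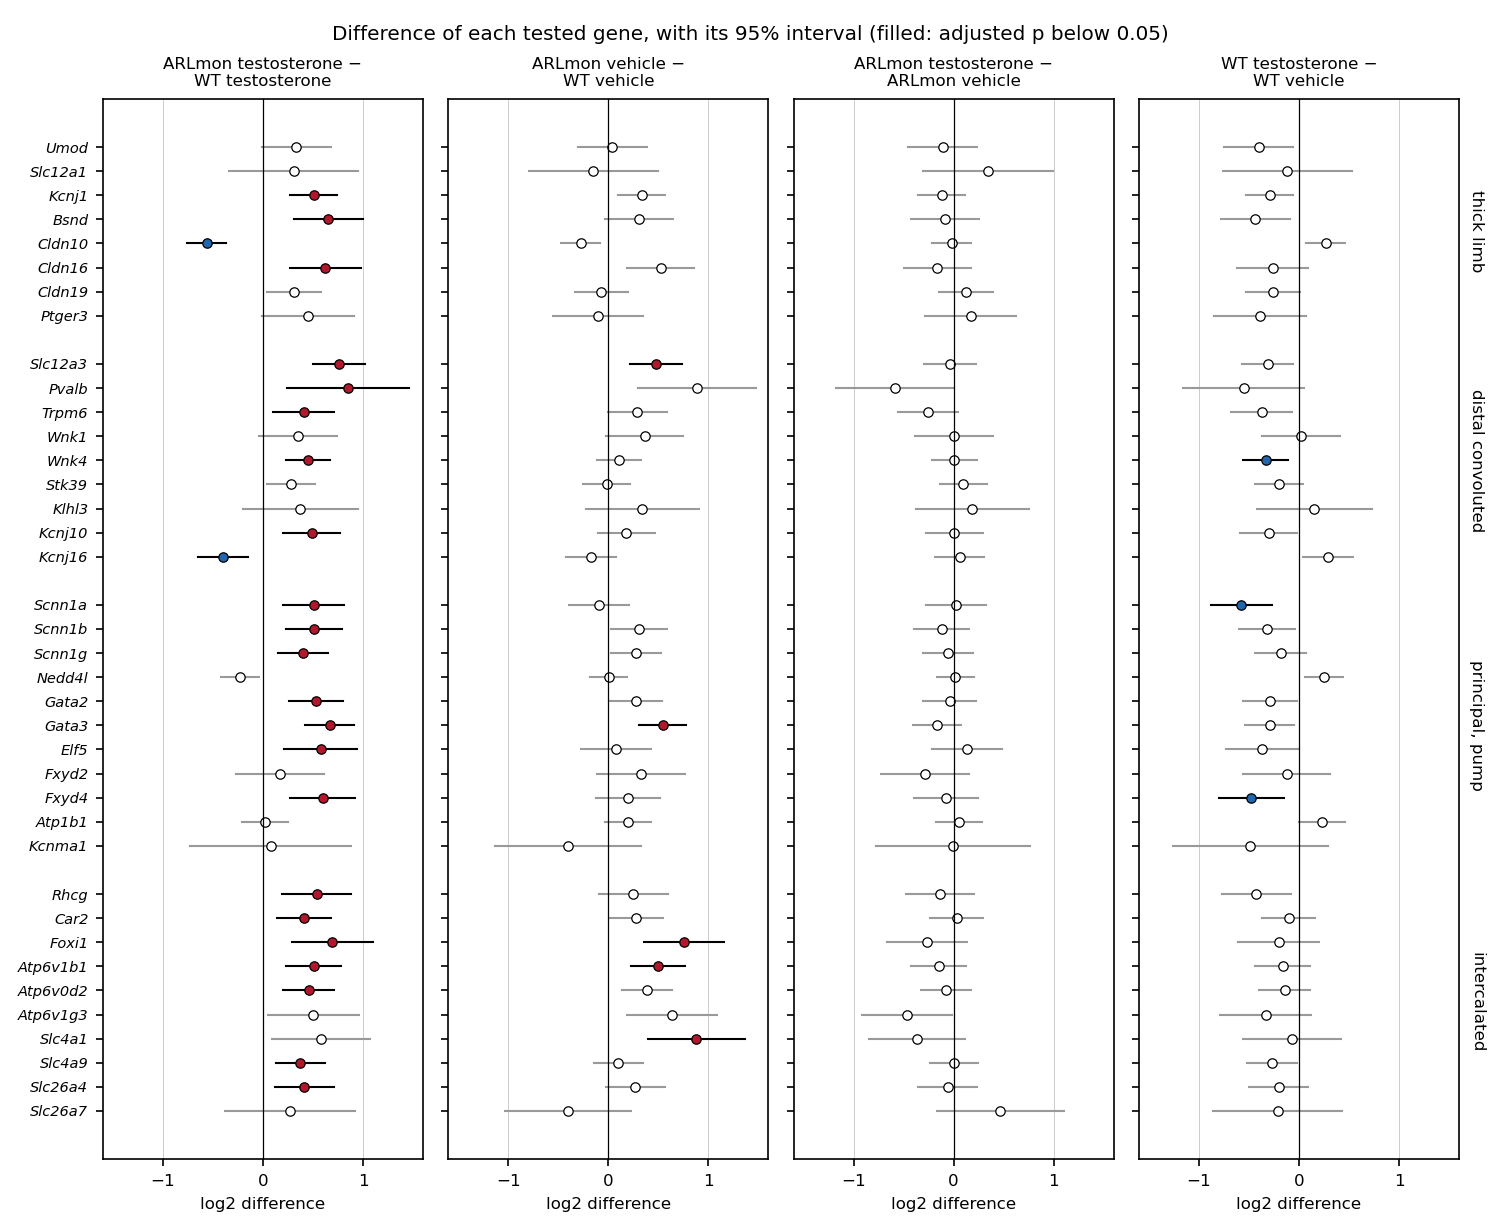
Log2 difference (x axis) of each of the 38 tested genes (rows, by segment) in 4 comparisons, with 95% intervals from edgeR; filled points passed an adjusted p of 0.05, red for rises and blue for falls. The ARLmon minus wild type comparison under testosterone holds 24 filled points, of which 22 are red, and the comparison within ARLmon holds none.

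Whole kidney was sequenced, so fewer cells of a type and less RNA per cell cannot be told apart. Markers of other kidney cell types moved with the genotype under testosterone as well. All 5 podocyte markers rose, with a summed level of 507 to 623 CPM in ARLmon testosterone libraries and 292 to 363 CPM in wild type testosterone libraries. Among 6 endothelial markers 5 rose (summed level 371 to 486 CPM in ARLmon, 288 to 317 CPM in wild type), and all 5 markers of smooth muscle and renin cells rose (305 to 429 CPM in ARLmon, 207 to 257 CPM in wild type). Of 6 fibroblast markers 1 rose (305 to 527 CPM in ARLmon, 233 to 424 CPM in wild type), as did 3 of 5 tested immune markers (52.1 to 103 CPM in ARLmon, 43.4 to 64.4 CPM in wild type) and 1 of 4 tested thin limb and inner medulla markers (326 to 455 CPM in ARLmon, 288 to 345 CPM in wild type). None of 5 urothelial markers changed by edgeR, with 1 at an unadjusted p below 0.05 (18.9 to 30.5 CPM in ARLmon, 12.8 to 24.9 CPM in wild type). Proximal tubule markers went the other way in their sum, with 13160 to 15840.1 CPM in ARLmon libraries and 18103 to 20358 CPM in wild type libraries. Of those 10 markers Slc22a6, Slc27a2 and Hnf4a fell, with log2 differences of -1.68, -1.06 and -0.47, and Slc13a3 rose. No defining marker of these tested lists was at 0. In wild type kidneys under testosterone against vehicle, all 5 podocyte markers, 3 of 5 smooth muscle markers and 2 of 6 endothelial markers fell, as did the thin limb marker Cryab (-0.70), 1 of 4. Of the 10 proximal tubule markers Slc22a6, Slc27a2 and Hnf4a rose there (0.87, 0.80 and 0.31) and Slc5a2 fell (-0.35), and none of the fibroblast, immune and urothelial markers changed by edgeR, with 1, 2 and 0 of them at an unadjusted p below 0.05. Between the genotypes under vehicle, 1 of 5 podocyte markers rose, 2 of 10 proximal tubule markers fell and none of the endothelial, smooth muscle, fibroblast, immune, thin limb and urothelial markers changed by edgeR, with 1, 0, 0, 1, 1 and 2 of them at an unadjusted p below 0.05. At that unadjusted p, 4 of the 5 podocyte markers were higher under vehicle, and all 5 were above 0 with a median of 0.36. Of the 10 proximal tubule markers 4 were lower at that p, and 8 were below 0 with a median of -0.27. The part of the other kidney cell types in the distal nephron differences was not tested.

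**Figure D2:**
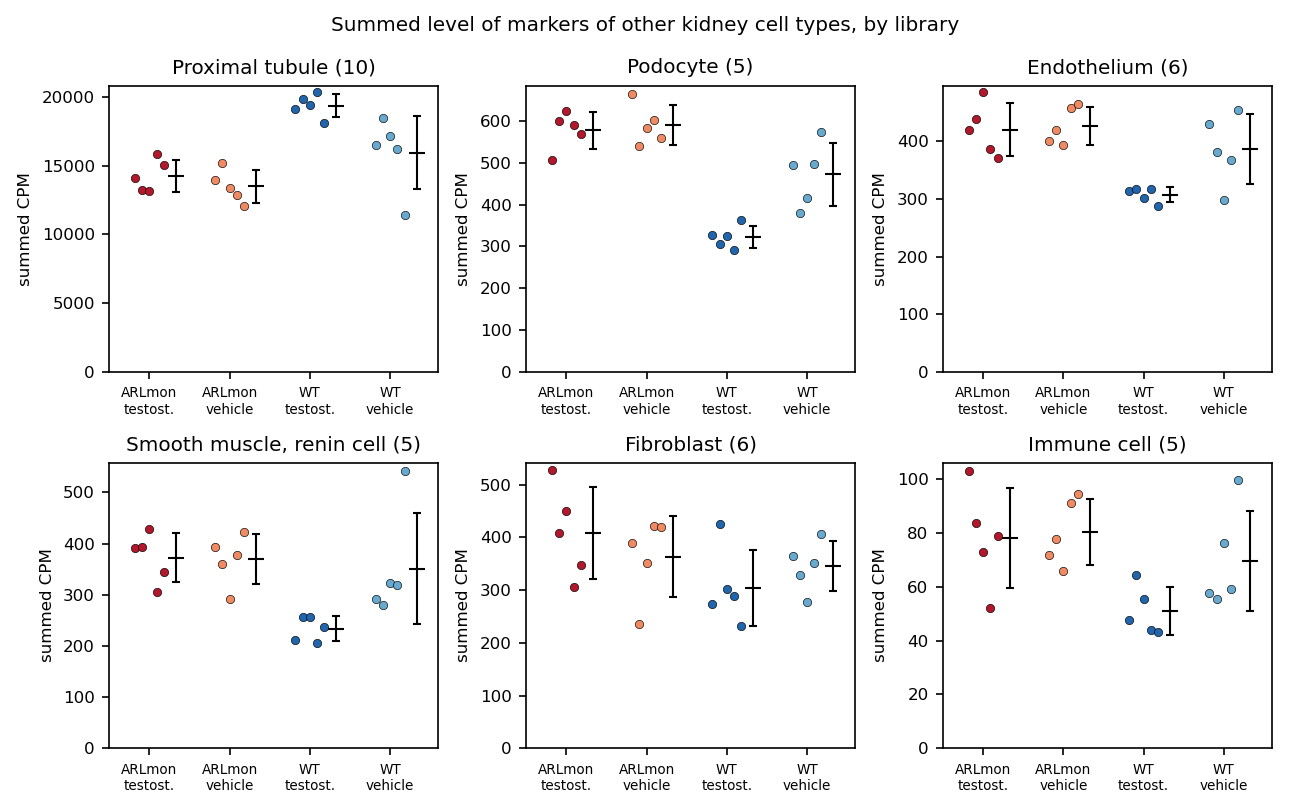
Summed CPM (y axis, from 0) of the tested markers of 6 other kidney cell types in each library (points, 5 per group), with the group mean and SD beside them; the number of genes is in each title. Podocyte, endothelial and smooth muscle sums of the 5 wild type testosterone libraries lie below those of all 5 ARLmon testosterone libraries, and their proximal tubule sums lie above.

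Single libraries differed in the level of the whole set. Relative to its group mean, ARLmon testosterone library GC078612 was above the mean for 4 of 38 genes, with a median log2 deviation of -0.28, and library GC078616 of the same group was above it for 32, with a median of 0.25. Library GC078613 of that group was above the mean for 32 genes with a median deviation of 0.11. In the wild type testosterone group the medians ran from -0.07 to 0.10. The number of genes that passed the test under testosterone ran from 17 without GC078616 to 27 without GC078612, and each single omission gave a value between these.

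**Figure D3:**
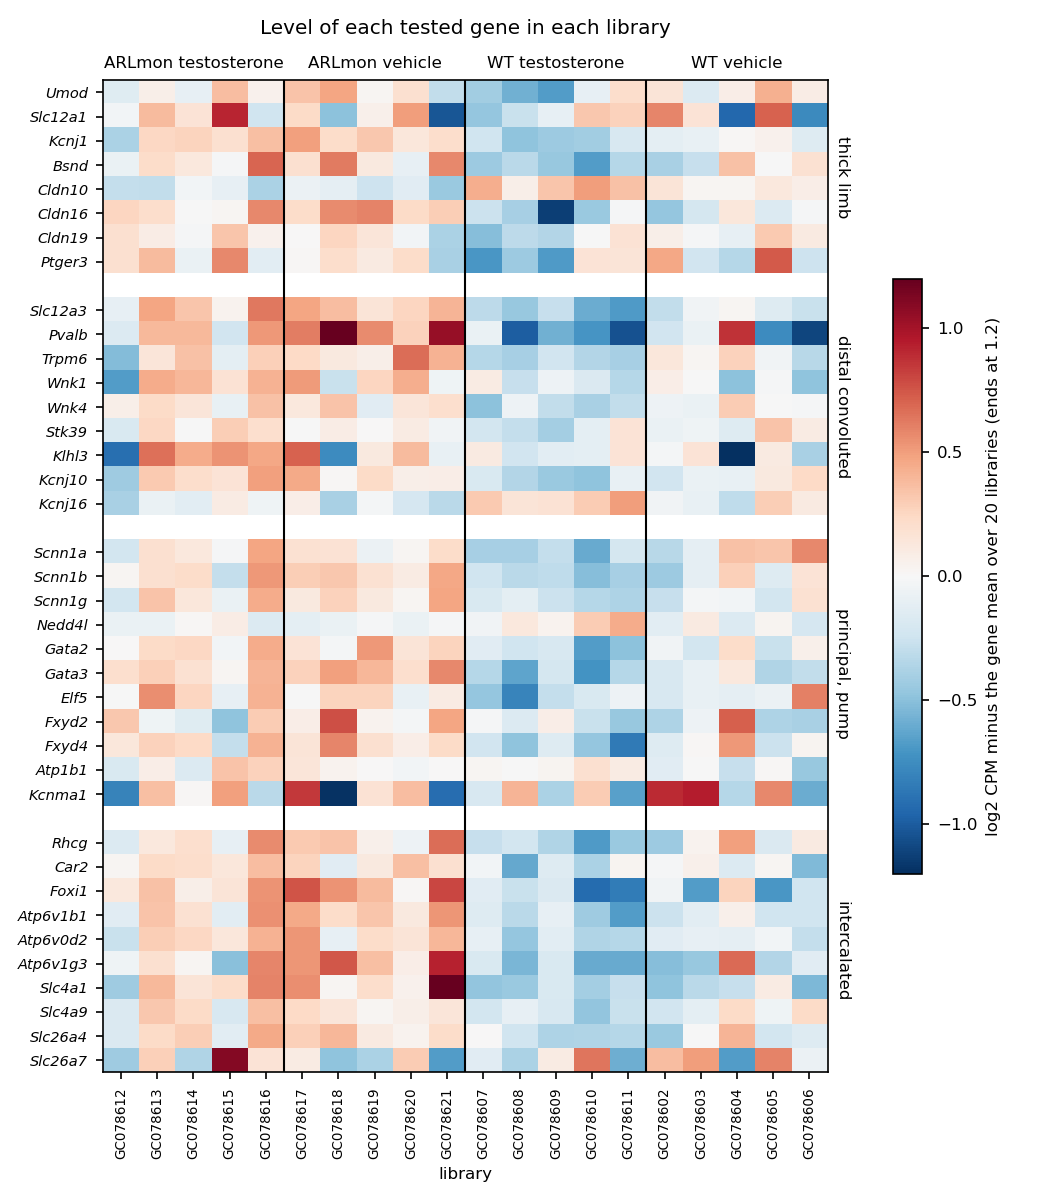
Log2 CPM of each tested gene (rows, by segment) in each library (columns, by group), relative to the gene's mean over the 20 libraries; the colour scale ends at 1.2 in both directions. Most rows are red in the ARLmon columns and blue in the 5 wild type testosterone columns, Cldn10 and Kcnj16 show the opposite, and column GC078612 is paler or bluer than the other ARLmon testosterone columns.

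Levels of different genes were compared per kilobase of exon, with all annotated exons of a gene joined. Exons that kidney transcripts lack therefore lower the value. In ARLmon testosterone kidneys the most abundant transcript was Umod, the secreted uromodulin of the thick limb, at 914 ± 134 CPM per kilobase (SD, n = 5), and in wild type vehicle kidneys it was at 958 ± 142. Atp1b1, the beta subunit of the sodium pump, followed at 788 ± 132 CPM per kilobase in ARLmon testosterone and 664 ± 86.3 in wild type vehicle kidneys, and Fxyd2, a modulator of the same pump, at 435 ± 97.6 and 422 ± 163. Umod and Atp1b1 changed places in wild type testosterone kidneys, with 724 ± 191 and 779 ± 43.8 CPM per kilobase, a gap smaller than the spread of Umod. Slc12a1 and Slc12a3 lay at 143 ± 47.1 and 129 ± 26.1 CPM per kilobase in ARLmon testosterone kidneys. In wild type vehicle kidneys they lay at 125 ± 59.3 and 94.6 ± 9.26. On this scale they did not differ beyond the spread of Slc12a1 in those groups, nor in ARLmon vehicle kidneys (113 ± 43.1 and 132 ± 11.4). In wild type testosterone kidneys Slc12a1 was higher by more than its spread, at 115 ± 27.1 against 76.1 ± 9.05 for Slc12a3. The joined exons of Slc12a1 and Slc12a3 measured 5.763 and 11.119 kilobases. Which of these exons kidney transcripts hold was not tested. The lowest tested gene was the potassium channel Kcnma1, at 0.123 ± 0.0539 CPM per kilobase in wild type vehicle kidneys, with 9 to 88 reads per library there.

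In the thick ascending limb, the apical potassium channel Kcnj1 (chr9:32372493-32399197, plus strand, GRCm38) measured 235, 363, 368, 349 and 395 CPM under testosterone and 429.7, 356, 383, 336 and 354 CPM under vehicle in ARLmon libraries. In wild type libraries it measured 259, 218, 227, 229 and 268 CPM under testosterone and 282, 288, 310.2, 318 and 276 CPM under vehicle. Under testosterone 4 of the 5 ARLmon libraries lay above every wild type library and GC078612 lay within their range, and the log2 difference was 0.51 ± 0.11, adjusted p = 0.00167. Under vehicle the ARLmon and wild type libraries did not overlap, but the difference of 0.33 ± 0.11 missed the threshold (adjusted p = 0.104). Bsnd, or barttin, a protein of the basolateral membrane needed for salt reabsorption, measured 96.8, 119, 112, 101 and 166 CPM under testosterone and 117, 158, 111, 95.2 and 152 CPM under vehicle in ARLmon libraries, and 75.8, 82, 74.8, 64.4 and 80.5 CPM under testosterone and 78.1, 84.5, 131, 102 and 116 CPM under vehicle in wild type libraries. All 5 ARLmon testosterone libraries exceeded all 5 wild type testosterone libraries, by 0.66 ± 0.16 (adjusted p = 0.0046). Cldn16, which carries calcium and magnesium between cells, averaged 9.15 ± 1.54 CPM in ARLmon and 5.9 ± 1.51 CPM in wild type kidneys under testosterone, a rise of 0.62 ± 0.17, adjusted p = 0.00837. Its lowest library held 27 reads.

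Cldn10 (chr14:118787908-118875489, plus strand) moved against its segment. It measured 176, 176, 210.3, 201 and 165 CPM under testosterone and 205, 199.9, 181, 197 and 159 CPM under vehicle in ARLmon libraries. Wild type libraries held 292, 226, 272, 305 and 275 CPM under testosterone and 239, 218, 218, 236 and 228 CPM under vehicle. Every ARLmon library lay below every wild type library of the same treatment, and the difference was -0.56 ± 0.09, adjusted p = 9.36e-05, under testosterone and -0.28 ± 0.09 (adjusted p = 0.101) under vehicle. The fall under testosterone also passed with library size as the only scaling, at -0.31 (adjusted p = 0.00805). As background, Cldn10 is made from alternative first exons as an isoform of the thick limb and one of the proximal tubule, and counts per gene do not separate them. The segment's defining genes Umod and Slc12a1 did not pass by edgeR with TMM over all 20 libraries in any comparison. Umod averaged 2524 ± 369.7 and 2001 ± 527 CPM in ARLmon and wild type kidneys under testosterone (0.34 ± 0.17, adjusted p = 0.134), and 2721 ± 537 and 2646 ± 392 CPM under vehicle. The genotype difference of Umod under testosterone passed with library size as the only scaling (0.58, adjusted p = 0.00652) and by limma on the deposited log2 table (0.62, adjusted p = 0.00428), as did its testosterone difference in wild type kidneys (-0.56 and -0.57), and both also passed by edgeR without GC078611. Slc12a1 varied widely within groups, from 569 to 1263 CPM among ARLmon testosterone libraries and from 485 to 839 CPM among wild type testosterone libraries (0.31 ± 0.31, adjusted p = 0.487). Cldn19, the partner of Cldn16, and the prostaglandin receptor Ptger3 had differences of 0.31 and 0.45 under testosterone that missed the threshold (adjusted p = 0.0767 and 0.13) and passed with library size as the only scaling (0.55 and 0.70). Umod and Cldn19 overlap antisense exons in the annotation, by 539 and 90 bases, and the strand setting of the counting is not given in the sources used here.

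In the distal convoluted tubule, Slc12a3 (chr8:94329201-94366214, plus strand) had the smallest adjusted p among the genes that rose under testosterone. It measured 1085, 1608, 1463, 1197 and 1794 CPM under testosterone and 1610.4, 1498, 1288, 1391 and 1538 CPM under vehicle in ARLmon libraries. Its wild type levels were 933, 848, 957, 767 and 726 CPM under testosterone and 945, 1129, 1182, 1041 and 964 CPM under vehicle. No ARLmon library fell within the range of the wild type libraries of the same treatment. The difference was 0.76 ± 0.12 under testosterone, a 1.69-fold level (adjusted p = 8.74e-05), and 0.48 ± 0.12 under vehicle, a 1.39-fold level (adjusted p = 0.0291). Within wild type kidneys the testosterone difference of -0.31 ± 0.12 missed the threshold (adjusted p = 0.093). It passed as a fall with library size as the only scaling and by limma on the deposited log2 table. The rise under vehicle was lost when any 1 of GC078602, GC078603, GC078605, GC078606, GC078617 or GC078621 was left out, with adjusted p up to 0.0745 and a difference between 0.44 and 0.52. The rise under testosterone was not lost in any such fit.

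Wnk4 (chr11:101260567-101277409, plus strand), a kinase that acts on Slc12a3 through Stk39, measured 283, 316, 298, 253 and 344 CPM under testosterone and 294, 341, 245, 298 and 309 CPM under vehicle in ARLmon libraries. Among wild type libraries it reached 191, 259, 219.7, 205 and 220.0 CPM under testosterone and 258, 254, 333, 268 and 267 CPM under vehicle. Between wild type groups 1 testosterone library overlapped the vehicle range and the fall was -0.33 ± 0.11, adjusted p = 0.0373, whereas between ARLmon groups the difference was 0.01 ± 0.11 (95% interval -0.21 to 0.23). Under testosterone Wnk4 was higher in ARLmon kidneys by 0.45 ± 0.11, adjusted p = 0.00303. The wild type fall was lost when any 1 of GC078604, GC078606, GC078607, GC078609, GC078610 or GC078611 was left out, and it was -0.26 (adjusted p = 0.108) without GC078604, whose value was the highest of its group. Wnk4 overlaps an antisense gene by 306 bases in the annotation.

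The other kinases and the ubiquitin ligase adaptor of this pathway did not pass by edgeR with TMM over all 20 libraries in any comparison. Under testosterone Wnk1, Stk39 and Klhl3 had differences of 0.35 ± 0.19, 0.28 ± 0.12 and 0.37 ± 0.28. By limma on the deposited log2 table these were 0.54, 0.55 and 0.77 and passed (adjusted p = 0.0467, 0.00176 and 6.49e-05), as did Klhl3 under vehicle (0.48, adjusted p = 0.03) and Stk39 with testosterone in wild type kidneys (-0.38, adjusted p = 0.0368). Wnk1 and Stk39 also passed with library size as the only scaling. Kcnj10, which forms basolateral potassium channels with Kcnj16, averaged 136 ± 29.4 CPM in ARLmon and 96.9 ± 11.3 CPM in wild type kidneys under testosterone and rose (0.49 ± 0.14, adjusted p = 0.0104). Its partner fell: Kcnj16 measured 515, 637, 618, 721 and 650.4 CPM under testosterone and 713, 514, 665, 585 and 538 CPM under vehicle in ARLmon libraries. In wild type libraries Kcnj16 measured 840.5, 751, 762, 831 and 958 CPM under testosterone and 657, 635, 545, 830.0 and 726 CPM under vehicle. All 5 ARLmon testosterone libraries lay below all 5 wild type testosterone libraries (-0.40 ± 0.12, adjusted p = 0.0146), but under scaling by library size alone the difference was -0.16 and no longer passed (adjusted p = 0.291), nor did it by limma on the deposited log2 table (-0.17, adjusted p = 0.307). As background, Kcnj16 is also made in the proximal tubule, where Kcnj10 is scarce. The magnesium channel Trpm6 rose by 0.41 ± 0.15, adjusted p = 0.0399 and the calcium-binding protein Pvalb by 0.85 ± 0.29, adjusted p = 0.0314. Both calls were lost in several fits that left out 1 library: for Trpm6 any of GC078603, GC078607, GC078608, GC078610, GC078611, GC078613, GC078614 or GC078616 (adjusted p up to 0.119), and for Pvalb any of GC078608, GC078609, GC078610, GC078611, GC078613, GC078614 or GC078616 (adjusted p up to 0.0796). Pvalb ranged from 16.3 to 63.7 CPM among wild type vehicle libraries alone.

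**Figure D4:**
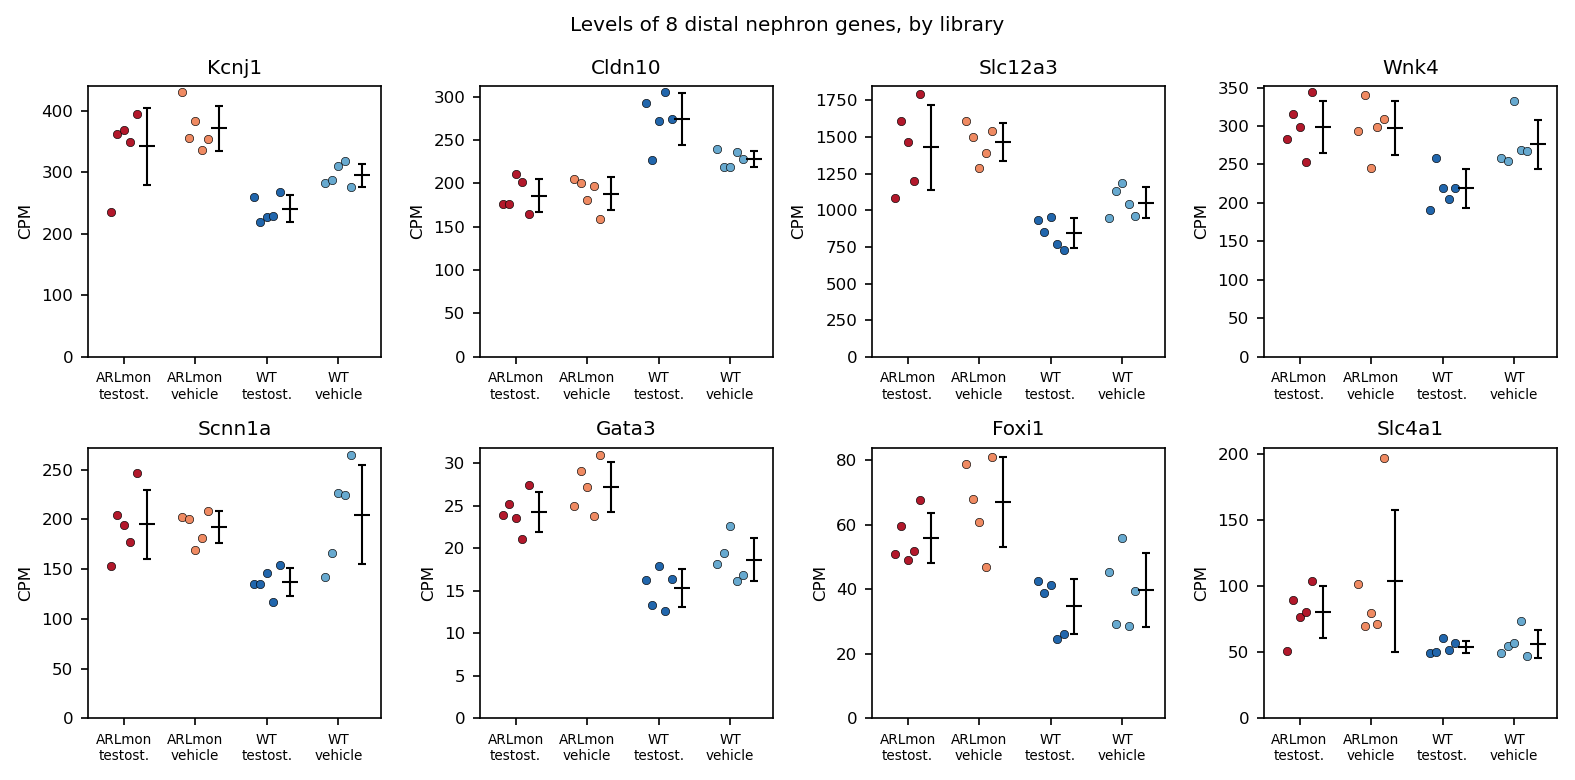
CPM (y axis, from 0) of 8 distal nephron genes in each library (points, 5 per group), with the group mean and SD beside them. Slc12a3, Gata3 and Foxi1 of all 5 ARLmon testosterone libraries lie above all 5 wild type testosterone libraries, Cldn10 lies below, and Slc4a1 has 1 ARLmon vehicle library at 197 CPM.

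In principal cells, Scnn1a (chr6:125320659-125344943, plus strand), the alpha subunit that the epithelial sodium channel needs to conduct, measured 153, 204, 194, 177 and 247 CPM under testosterone and 202, 200.5, 169, 181 and 208 CPM under vehicle in ARLmon libraries. The corresponding wild type levels were 135, 135, 146, 117 and 154 CPM under testosterone and 142, 166, 227, 224 and 265 CPM under vehicle. Among wild type libraries, 4 of the 5 vehicle values were above every testosterone value and GC078602 was within the testosterone range. The wild type fall was -0.58 ± 0.15, a 0.671-fold level (adjusted p = 0.00852), and it passed in every fit that left out 1 library. In ARLmon kidneys the testosterone difference was 0.02 ± 0.14, with a 95% interval of -0.28 to 0.32. Under testosterone the ARLmon level was higher by 0.51 ± 0.15, adjusted p = 0.0114, with 1 ARLmon library just inside the wild type range, while under vehicle the difference was -0.09 ± 0.14 (adjusted p = 0.795). The beta and gamma subunits, Scnn1b and Scnn1g, were higher in ARLmon than in wild type kidneys under testosterone by 0.51 ± 0.13, adjusted p = 0.00634, and 0.40 ± 0.12, adjusted p = 0.0163. They averaged 97 ± 19.6 and 88.6 ± 16.9 CPM in ARLmon testosterone kidneys and 68.1 ± 4.7 and 67.3 ± 4.96 CPM in wild type testosterone kidneys. In wild type kidneys their testosterone differences were -0.32 ± 0.13 and -0.18 ± 0.12, which missed the threshold. Both passed as falls with library size as the only scaling. Scnn1b also passed by limma on the deposited log2 table and by edgeR without GC078602. Leaving out GC078613 or GC078616 ended the call for Scnn1g between the genotypes under testosterone (adjusted p up to 0.0581). Nedd4l, the ligase that removes the channel from the membrane, had -0.23 ± 0.09 under testosterone (adjusted p = 0.0614), and this passed as a fall with DESeq2 and with median-ratio scaling. It did not pass with library size as the only scaling, by limma-voom or by limma on the deposited log2 table.

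The collecting duct transcription factors Gata3, Gata2 and Elf5 were each higher in ARLmon than in wild type kidneys under testosterone. Gata3 (chr2:9857078-9890034, minus strand) measured 23.8, 25.2, 23.5, 21 and 27.4 CPM under testosterone and 25, 29, 27.2, 23.8 and 30.9 CPM under vehicle in ARLmon libraries. In wild type libraries it measured 16.3, 13.3, 17.9, 12.6 and 16.3 CPM under testosterone and 18.2, 19.4, 22.6, 16.1 and 16.8 CPM under vehicle. ARLmon and wild type libraries did not overlap under either treatment, and Gata3 rose by 0.67 ± 0.12, adjusted p = 0.000194, under testosterone and by 0.54 ± 0.11, adjusted p = 0.00619, under vehicle. No fit without 1 library ended either call. Gata3 shares 77 bases of exon with a gene on its own strand and 155 with one on the other strand. Gata2 averaged 33.8 ± 4.67 CPM in ARLmon and 23.6 ± 3.57 CPM in wild type kidneys under testosterone (0.53 ± 0.13, adjusted p = 0.00388). Elf5, a regulator of principal cell identity, averaged 8.46 ± 1.61 and 5.64 ± 1.05 CPM (0.58 ± 0.17, adjusted p = 0.0159), a call that ended without GC078613 (adjusted p = 0.0541).

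Among the genes of the sodium pump, Fxyd4, a modulator found in collecting duct, was the only one to pass by edgeR with TMM over all 20 libraries. Fxyd4 (chr6:117933559-117937692, minus strand) measured 40.5, 44.5, 43.4, 30.2 and 49.1 CPM under testosterone and 40.8, 55.1, 41.9, 38.7 and 43.1 CPM under vehicle in ARLmon libraries. Wild type libraries held 31.3, 26.4, 32.9, 26.6 and 20.4 CPM under testosterone and 33.1, 37, 52.6, 30.7 and 37.6 CPM under vehicle. It fell with testosterone in wild type kidneys by 0.48 ± 0.16 on the log2 scale (adjusted p = 0.0419), and under testosterone it was higher in ARLmon kidneys by 0.60 ± 0.16, adjusted p = 0.00625. In both comparisons 1 or more libraries overlapped. The wild type fall was lost when any 1 of GC078603, GC078604, GC078606, GC078608, GC078610, GC078611, GC078613, GC078614 or GC078619 was left out, and it was -0.33 (adjusted p = 0.136) without GC078604. Fxyd2 and Atp1b1, which many tubule segments make, had differences of 0.17 ± 0.21 and 0.02 ± 0.11 under testosterone, with 95% intervals of -0.27 to 0.61 and -0.21 to 0.25. Atp1b1 passed there with library size as the only scaling (0.26, adjusted p = 0.0434), and Fxyd2 passed under vehicle without GC078604. Kcnma1, with 8 reads in its lowest library, had an interval of -0.73 to 0.88.

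In intercalated cells, the forkhead factor Foxi1 (chr11:34204338-34208089, minus strand), which these cells need to form, measured 50.9, 59.6, 49, 51.7 and 67.6 CPM under testosterone and 78.7, 67.9, 60.8, 47 and 81.1 CPM under vehicle in ARLmon libraries. Its wild type levels were 42.5, 38.7, 41.4, 24.7 and 26.1 CPM under testosterone and 45.3, 29.2, 56, 28.7 and 39.5 CPM under vehicle. Under testosterone all ARLmon libraries lay above all wild type libraries, and under vehicle 1 ARLmon library and 1 wild type library overlapped the other group. Foxi1 rose by 0.69 ± 0.20, adjusted p = 0.0101, under testosterone and by 0.76 ± 0.19, adjusted p = 0.0246, under vehicle. The second of these calls ended without GC078603, GC078605, GC078617 or GC078621 (adjusted p up to 0.0892). Within each genotype its testosterone difference did not pass, at -0.27 ± 0.19 in ARLmon and -0.20 ± 0.20 in wild type kidneys.

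Of the 3 vacuolar proton pump subunits of the list, 2 rose under testosterone. Atp6v1b1 (chr6:83742990-83758855, plus strand), the subunit whose loss causes renal acidosis with deafness in humans, measured 155, 216, 194, 156 and 249 CPM under testosterone and 233, 199, 215, 184 and 246 CPM under vehicle in ARLmon libraries. Among wild type libraries it reached 153, 136, 159, 127 and 107 CPM under testosterone and 142, 156, 177, 144 and 144 CPM under vehicle. Under testosterone 2 ARLmon libraries, GC078612 and GC078615, lay within the wild type range, and under vehicle the genotypes did not overlap. The rise was 0.51 ± 0.13, adjusted p = 0.00563, under testosterone and 0.50 ± 0.13, adjusted p = 0.0321, under vehicle, where it ended without GC078602, GC078603, GC078605, GC078606, GC078617, GC078619 or GC078621 (adjusted p up to 0.0998). Atp6v0d2, of the membrane part of the pump, rose under testosterone (0.46 ± 0.12, adjusted p = 0.00722), and Atp6v1g3 had 0.50 ± 0.22, adjusted p = 0.0857. Atp6v1g3 passed with library size as the only scaling, by limma on the deposited log2 table and with the testosterone groups compared alone. It also passed by edgeR without GC078604 or without GC078615.

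The anion exchangers mark the acid-secreting and the bicarbonate-secreting types of the cell. Slc4a1 (chr11:102348824-102366203, minus strand), the basolateral exchanger of the acid-secreting type and also of red cells, measured 51.1, 89.9, 76.5, 80.3 and 104 CPM under testosterone and 101, 70, 79.7, 71.3 and 197 CPM under vehicle in ARLmon libraries. The corresponding wild type levels were 49.5, 50.4, 60.5, 51.9 and 56.8 CPM under testosterone and 49.3, 54.9, 56.7, 73.6 and 47.2 CPM under vehicle. It rose under vehicle (0.88 ± 0.23, adjusted p = 0.0309), where 4 of 5 ARLmon libraries lay between 70.0 and 101 CPM and GC078621 stood at 197 CPM, and the wild type maximum of 73.6 CPM overlapped the lower ARLmon values. Without GC078621 the difference was 0.51 (adjusted p = 0.113), and the call also ended without GC078602, GC078603, GC078606 or GC078617. Aqp6, a channel of the acid-secreting type, was likewise highest in GC078621 (188 CPM, against 61.8 to 100.4 CPM in the other 4 ARLmon vehicle libraries), a gene chosen after its values were seen. Under testosterone the Slc4a1 difference of 0.58 ± 0.23 missed the threshold (adjusted p = 0.0643). It passed with library size as the only scaling, by limma on the deposited log2 table and with the testosterone groups compared alone. It also passed by edgeR without GC078612 or without GC078621. The exchangers of the bicarbonate-secreting type, Slc26a4 (pendrin) and Slc4a9, rose under testosterone by 0.41 ± 0.14, adjusted p = 0.0323, and 0.37 ± 0.12, adjusted p = 0.0203. Slc26a4 averaged 175 ± 32.5 and 182 ± 18 CPM in ARLmon kidneys with testosterone and vehicle, and 131 ± 15.1 and 151 ± 35.5 CPM in wild type kidneys. Its call ended without any 1 of GC078608, GC078609, GC078610, GC078611, GC078613, GC078614 or GC078616 (adjusted p up to 0.0983), and that of Slc4a9 without GC078610, GC078613 or GC078616 (adjusted p up to 0.0637).

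Rhcg, the ammonia channel shared by collecting duct cell types, rose under testosterone (0.54 ± 0.17, adjusted p = 0.0177), with no overlap between ARLmon libraries (174 to 289 CPM) and wild type libraries (122 to 167 CPM). Its call ended without GC078610 or GC078616 (adjusted p up to 0.0653). Car2, a carbonic anhydrase listed with the intercalated cell genes, rose by 0.41 ± 0.13, adjusted p = 0.0199. That call ended without GC078608, GC078610 or GC078616 (adjusted p up to 0.0601). Which kidney cells made Car2 was not tested. Slc26a7, an anion exchanger with 19 to 171 reads per library, had 0.27 ± 0.31 under testosterone and did not pass in any comparison.

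Another 46 genes of the same segments, of which 45 were tested, were listed beside these. Both sets were chosen with earlier results of these data known, so the further genes are no independent check of the first. Under testosterone 19 of the 45 were higher and 2 lower in ARLmon than in wild type kidneys, with a median of 0.47, beside the 15.6% of all tested genes that rose and 15.5% that fell. In the thick limb list 3 of 10 rose, among them Ppp1r1a, an inhibitor of protein phosphatase (0.67 ± 0.14), and the growth factor Egf (0.52 ± 0.18). In the distal convoluted tubule list 4 of 10 rose and 1 fell. The calcium-binding protein Calb1 rose by 0.73 ± 0.18, the calcium channel Trpv5 by 0.54 ± 0.16 and the tissue kallikrein Klk1 by 0.71 ± 0.22. Cul3, the ubiquitin ligase scaffold that works with Klhl3 in every cell type, fell (-0.42 ± 0.10). In the principal cell list 4 of 12 rose, among them Hsd11b2, which protects the mineralocorticoid receptor from glucocorticoids (0.61 ± 0.15), the receptor Nr3c2 itself (0.44 ± 0.16), the protease St14 (0.54 ± 0.14) and Npnt, a matrix protein (0.52 ± 0.18). In the intercalated cell list 8 of 13 tested genes rose and 1 fell. The receptor Kit rose by 0.56 ± 0.14, the small membrane protein Tmem213 by 0.80 ± 0.21 and the proton-potassium pump subunit Atp4a by 0.53 ± 0.14. Atp6v1a, the proton pump subunit that nearly all cells make, fell (-0.52 ± 0.13).

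The same 45 genes gave 4 rises and no fall between the genotypes under vehicle by edgeR, beside 1.99% and 2.38% of all tested genes: Calb1 (0.85 ± 0.18), Dmrt2 (0.83 ± 0.20), Tmem213 (0.74 ± 0.20) and Ppp1r1a (0.54 ± 0.14). In wild type kidneys, where 9.36% of all tested genes rose with testosterone and 6.36% fell, Atp6v1a (0.58 ± 0.13) and Cul3 (0.36 ± 0.10) rose, and the genes that fell included Klk1 (-0.67 ± 0.22) and St14 (-0.43 ± 0.14). None of the 45 changed with testosterone in ARLmon kidneys by edgeR, with 1 at an unadjusted p below 0.05. None passed for the difference of the testosterone effects, with 4 at an unadjusted p below 0.05. Over all 15549 genes tested, 813 and 2588 were below that unadjusted p in these comparisons, in that order.

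Promoters were examined because many of the genes moved together between the genotypes. RefSeq's table for GRCm38.p6 held an entry for 30 of the 39 genes and for 19 of the 25 that passed in any comparison. The letters of the androgen response half-site, AGAACA, were searched on both strands from 250 bases before to 50 bases after each start. They were present in 7 of 26 promoters (26.9%) of the 19 genes, and in 19% of all 32851 promoters. The genes with a match were Kcnj1, Cldn16, Pvalb, Kcnj10, Rhcg, Foxi1 and Slc26a4. The half-site as an inverted repeat with 3 bases between was in none of the 26, and in 3 of all promoters (0.00913%). The 250 bases before the start are shown 5′ to 3′ for the 4 genes of the 19 with the smallest p in the wild type testosterone comparison. They are Wnk4 (chr11:101260317-101260566, plus strand), Fxyd4 (chr6:117937336-117937585, minus strand), Cldn10 at its 2 starts (chr14:118787621-118787870 and chr14:118854700-118854949, plus strand) and Kcnj1 (chr9:32393735-32393984, plus strand). Capitals mark the half-site, which only the Kcnj1 window holds, 190 and 14 bases before the start. The Kcnj1, Fxyd4 and second Cldn10 windows lie inside the gene spans of the annotation, so these are not the outermost starts. For Fxyd4 and the first Cldn10 start, the last bases searched were not found in the annotated transcripts.
Wnk4: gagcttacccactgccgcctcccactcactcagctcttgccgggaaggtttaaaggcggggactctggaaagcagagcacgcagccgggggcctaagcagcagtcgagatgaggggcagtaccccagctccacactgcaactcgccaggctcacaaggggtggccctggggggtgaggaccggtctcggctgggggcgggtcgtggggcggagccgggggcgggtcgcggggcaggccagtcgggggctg
Fxyd4: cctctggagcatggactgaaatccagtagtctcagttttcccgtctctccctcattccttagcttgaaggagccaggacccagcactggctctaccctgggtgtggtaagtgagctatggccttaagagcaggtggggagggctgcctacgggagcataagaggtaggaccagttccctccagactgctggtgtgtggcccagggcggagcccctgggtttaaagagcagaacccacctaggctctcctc
Cldn10, first start: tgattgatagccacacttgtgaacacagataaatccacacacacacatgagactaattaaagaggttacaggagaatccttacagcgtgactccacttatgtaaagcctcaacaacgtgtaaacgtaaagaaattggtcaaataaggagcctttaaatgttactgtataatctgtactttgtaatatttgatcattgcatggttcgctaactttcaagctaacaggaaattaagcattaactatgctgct
Cldn10, second start: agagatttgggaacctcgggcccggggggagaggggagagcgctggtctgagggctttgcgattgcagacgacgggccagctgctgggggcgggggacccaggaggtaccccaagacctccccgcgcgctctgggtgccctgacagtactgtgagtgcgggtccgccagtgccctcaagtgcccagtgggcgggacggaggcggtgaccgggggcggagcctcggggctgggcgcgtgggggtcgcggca
Kcnj1: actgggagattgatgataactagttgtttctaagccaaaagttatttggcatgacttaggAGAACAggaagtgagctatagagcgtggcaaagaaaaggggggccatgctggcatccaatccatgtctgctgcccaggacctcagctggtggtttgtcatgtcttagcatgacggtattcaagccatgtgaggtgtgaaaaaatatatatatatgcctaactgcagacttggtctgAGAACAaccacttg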

How the data were processed

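Kidney RNA was prepared as stranded poly(A) libraries, per the labels' protocols. The submitters' processing notes name FastQC 0.11.7, HISAT2, SAMtools 1.5, HTSeq 2.7.14, DESeq2 and mm10. The annotation and the strand setting of the counting are not given in the sources used here. The authors deposited raw whole-number counts per gene in 4 tables of paired groups and a table of log2 values of 20550 genes, whose normalization is not stated. Library codes in the columns give the group but not the labels' replicate number.

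The count tables were joined over 20 libraries. Where they shared a library they held no differing value, and 12045 values in 1713 genes absent from a table were set to 0. Within groups, chi-square per degree of freedom between libraries was at least 5.56, so none was counted as a copy. Totals ran from 8342000 to 38101526 reads, and counts limit the precision of genes with few reads.

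edgeR 4.0.16 in R 4.3.3 (filterByExpr, TMM, quasi-likelihood, 4 group means, 16 residual degrees of freedom) tested 15549 genes in 5 contrasts, with Benjamini-Hochberg adjustment. The test was checked on simulated counts. Alternatives were RLE factors, library size alone, the 10 most abundant genes left out, no filter, at least 1 CPM in 5 libraries, DESeq2 1.42.0, limma-voom (limma 3.58.1), limma on the deposited log2 table, groups compared alone, and each library left out. A fit without GC078604 and GC078618 was added after seeing the data. Members and lists were chosen with earlier results of these data known. Genes named in full passed in any contrast or define a segment; of each further list at most the 4 with the smallest p per contrast are named, and 1 gene that this rule would name is not reported here. Positions and exon lengths are those of GENCODE M21 on GRCm38, matched by symbol, and may differ from the authors' annotation. Figures used matplotlib 3.10.9.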

Additional observations from a re-analysis of the deposited data

Results flagged for a closer look

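In 108 groups of 5 libraries (27 genes in 4 groups each), 5 groups held 1 library whose gap to the next exceeded 0.71 of the group's range (Dixon's 95% limit). Chance alone gives about 1 such group in 20. Kcnj1 was lowest in ARLmon testosterone library GC078612, at 235.2 CPM with the next at 349.3 CPM. Fxyd4 was highest in ARLmon vehicle library GC078618, at 55.1 CPM with the next at 43.06 CPM. Slc4a1 was highest in ARLmon vehicle library GC078621, at 197.5 CPM with the next at 101.3 CPM. Wnk4 was highest in wild type vehicle library GC078604, at 332.8 CPM with the next at 268.3 CPM. Elf5 was highest in wild type vehicle library GC078606, at 10.82 CPM with the next at 6.797 CPM.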

How the results depend on the processing

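No result reversed its direction under any alternative run. The number of genes that passed between ARLmon and wild type kidneys under testosterone stayed between 23 and 31 under all other settings, against 24. For ARLmon vehicle against wild type vehicle it was 5, and became 10 with library size alone, 9 with DESeq2, 8 without GC078604 and GC078618, 3 with no filter and 3 with the groups compared alone. For testosterone against vehicle in wild type kidneys it was 3, and became 18 with library size alone, 16 in the deposited log2 table, 5 with DESeq2 and 1 without GC078604 and GC078618. The difference of the testosterone effects passed for 2 genes, Scnn1a and Wnk4, with library size alone and 2 in the log2 table, against 0. Scaling by library size shifts the median of all genes, as given above; the cause of the other changes was not tested. With 1 library left out, the count for ARLmon against wild type under testosterone ran from 17 to 27. Under vehicle it ran from 1 (without GC078603, GC078617 or GC078621) to 9 (without GC078604), and was 2 without GC078602, GC078605 or GC078606. For testosterone in wild type kidneys it ran from 1 (without GC078604 or GC078610) to 6 (without GC078602), and was 5 without GC078612. The difference of effects gave 0 to 1 (without GC078602), and testosterone in ARLmon kidneys 0 throughout. Each called gene in each comparison was counted once per other setting, and the call was kept in 306 of 320 such cases. With 1 library left out it was kept in 570 of 640 cases. These cases share fits and libraries. No paired analysis was possible because the count columns carry a library code and not the replicate number. Batches are not named in the labels. Few reads limit Kcnma1, Slc26a7 and Cldn14.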
